A study of Homo sapiens with 8 samples.

Results

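Homologous recombination and Fanconi anemia genes are described here in NCI-H82 cells, a cultured small cell lung cancer line. The 35 genes were picked by symbol, with earlier results of these data known. Each had exactly 1 row among the 25337 usable rows of the deposited table. All libraries came from cells that carry a doxycycline-switched RB1 transgene (pTripZ RB1). The groups were pRB+ AZD2811 (0.5 µg/mL doxycycline for 96 h, and 32 nM AZD2811 for the last 48 h), pRB+ control (the same doxycycline with vehicle, DMSO), pRB- AZD2811 (no doxycycline, 32 nM AZD2811 for 48 h) and pRB- control (no doxycycline, vehicle), with 2 libraries each and 8 in all. Doxycycline without the transgene was not among the groups, so an effect of the antibiotic and one of pRB cannot be told apart. Sample titles name the drug AZD1152, a prodrug of AZD2811; the compound blocks Aurora B, a kinase that cells need to divide.

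Homologous recombination repairs a broken chromosome by copying the intact sister. Nucleases trim the broken ends, BRCA1, PALB2 and BRCA2 prepare the single strand for pairing, RAD51C, RAD51D, XRCC2, XRCC3 and the RAD54 motors help it to invade the sister, and helicases and nucleases separate the joined molecules. The Fanconi pathway deals with crosslinks between the DNA strands: a core complex attaches ubiquitin to FANCD2 and FANCI, which recruit nucleases, after which recombination finishes the repair. Most of these genes are used in S and G2 phase, and several are known targets of E2F factors, which pRB restrains.

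Values are FPKM, read fragments counted per length of transcript and per library total, rescaled between libraries. RB1 stood at 6.36 to 7.67 scaled FPKM in pRB+ libraries and at 0.801 to 0.95 in pRB- libraries, so every library matched the pRB label. The neuroendocrine genes NEUROD1 (74.8 to 111) and CHGA (41.8 to 71.7) were high throughout, while PTPRC, CD3E, ALB and KRT5, which mark other cells, reached at most 0.0359; CD68 reached 4.79. Depth, estimated from the table itself, was 23300000 to 33700000 fragments per library. RMRP, an RNA without a poly(A) tail, reached 5790 to 14000 in 3 libraries (replicate 1 of pRB+ AZD2811, replicate 2 of pRB+ control and replicate 1 of pRB- AZD2811) and 21.2 to 165 in the other 5. The scaling factors followed the same split, from 0.455 to 0.771 in the 3 and from 1.28 to 1.33 in the other 5. Bulk RNA cannot tell a smaller share of cells in S or G2 phase from less RNA of a gene in each cell.

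The most abundant members were RAD54L (mean 28.1 scaled FPKM over 8 libraries), FANCI (25.1) and RAD51C (24.2). RAD54L is a motor protein of strand invasion, FANCI is a substrate of the Fanconi core complex, and RAD51C acts in complexes with XRCC3 or with RAD51D and XRCC2. The order of these 3 depended on the arm. In pRB+ libraries RAD54L averaged 23.0 ± 1.04, FANCI 24.2 ± 1.67 and RAD51C 23.9 ± 1.48 (SD, n = 4), with overlapping ranges. In pRB- libraries RAD54L, at 30.4 to 37.3, lay above FANCI, at 24.7 to 27, and RAD51C, at 22.9 to 26.3, which overlapped. In all, 5 members averaged 20 or more, 8 from 10 to under 20, 13 from 5 to under 10, 8 from 1 to under 5, and 1 was under 1. The median member mean was 7.73 scaled FPKM, against 8.15 over the 12013 genes with a mean of at least 1, the genes tested here.

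The lowest members at 1 or above were RAD51D (2.48), SLX4 (1.92) and FANCM (1.75), a strand invasion factor, a nuclease scaffold and the anchor of the core complex on DNA. BRCA2, which PALB2 brings to breaks, was lowest of all at 0.756 and fell below the mean of 1 needed for testing across genes, so 34 members were tested. In pRB+ cells BRCA2 measured 0.842 and 0.694 under AZD2811 and 0.718 and 0.848 in control cells, against 0.907 and 0.782 under AZD2811 and 0.477 and 0.776 in control pRB- cells. The arms overlapped, at 0.775 ± 0.0809 in pRB+ and 0.736 ± 0.182 in pRB- libraries (SD, n = 4 each; exact two-sided permutation test, p = 0.771, where 0.0286 is the smallest p the design allows). For AZD2811 against control the exact two-sided permutation test gave p = 0.4, with means of 0.806 in AZD2811 and 0.705 in control libraries.

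**Figure D1:**
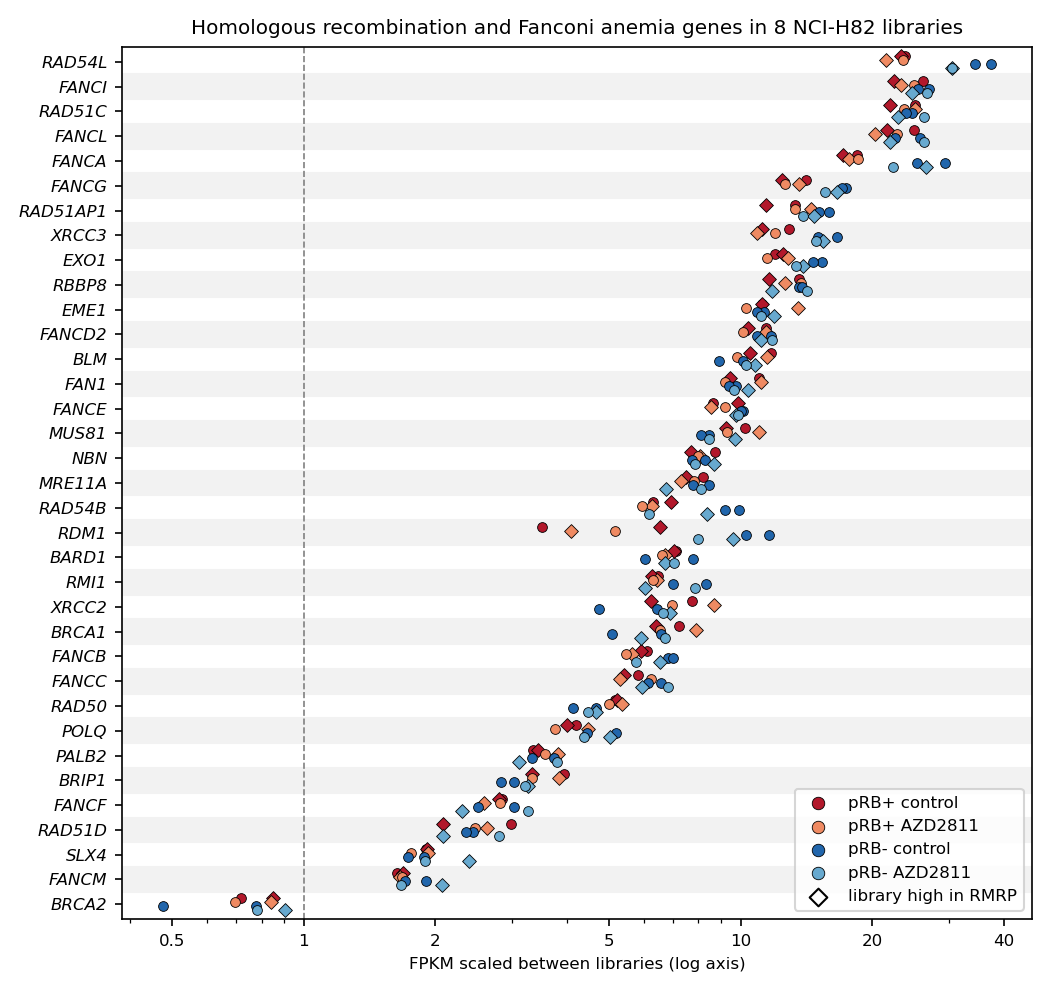
Scaled FPKM of the 35 members (log axis) in each of 8 libraries, ordered by mean, with diamonds for the 3 libraries high in RMRP and a dashed line at 1. RAD54L and FANCA show pRB+ points apart from pRB- points, while most members, FANCI and RAD51C among them, do not; BRCA2 lies below the line.

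Most members varied little across the study. The median coefficient of variation over 8 libraries was 9.8%; 19 members stayed under 10%, and 4 reached 20% or more. These 4 were RDM1 (40.8%), FANCA (21.3%), RAD54L (21.0%) and RAD54B (21.0%). Counting error alone ranged from 1.3% for the best covered member to 11.3% for FANCF in the library where it had fewest fragments, about 79.

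All 4 pRB+ libraries were set against all 4 pRB- libraries to ask what induced pRB changes, with AZD2811 as an additive term and the threshold at an adjusted p of 0.05 (limma, Benjamini-Hochberg over all genes tested). In pRB+ cells 6 members fell and 0 rose: RAD54L, FANCA, XRCC3, FANCG, RDM1 and EXO1. Over all genes 5.81% were lower and 5.34% higher by the same rule, which is the background for these 6 of 34. The median log2 difference was -0.06 over members and -0.01 over all genes. A negative difference was seen in 23 members and a positive one in 11, beside 6241 and 5772 of the 12013 genes tested. An unadjusted p under 0.05 was seen for 13 members, 38.2% of them, against 32.5% of all genes. The arms did not overlap in 6 members that were lower and 2 that were higher in pRB+ cells, beside 11.2% and 10.7% of all genes. The count of 6 members past the threshold rested on single libraries. It was 0 once replicate 1 of any of the 4 groups or replicate 2 of pRB- control was left out. In those fits only 1 or 2 of all genes passed, so the loss was not particular to the members. A fit of 4 group means averaged over AZD2811 gave 0 members and 4 of all genes.

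**Figure D2:**
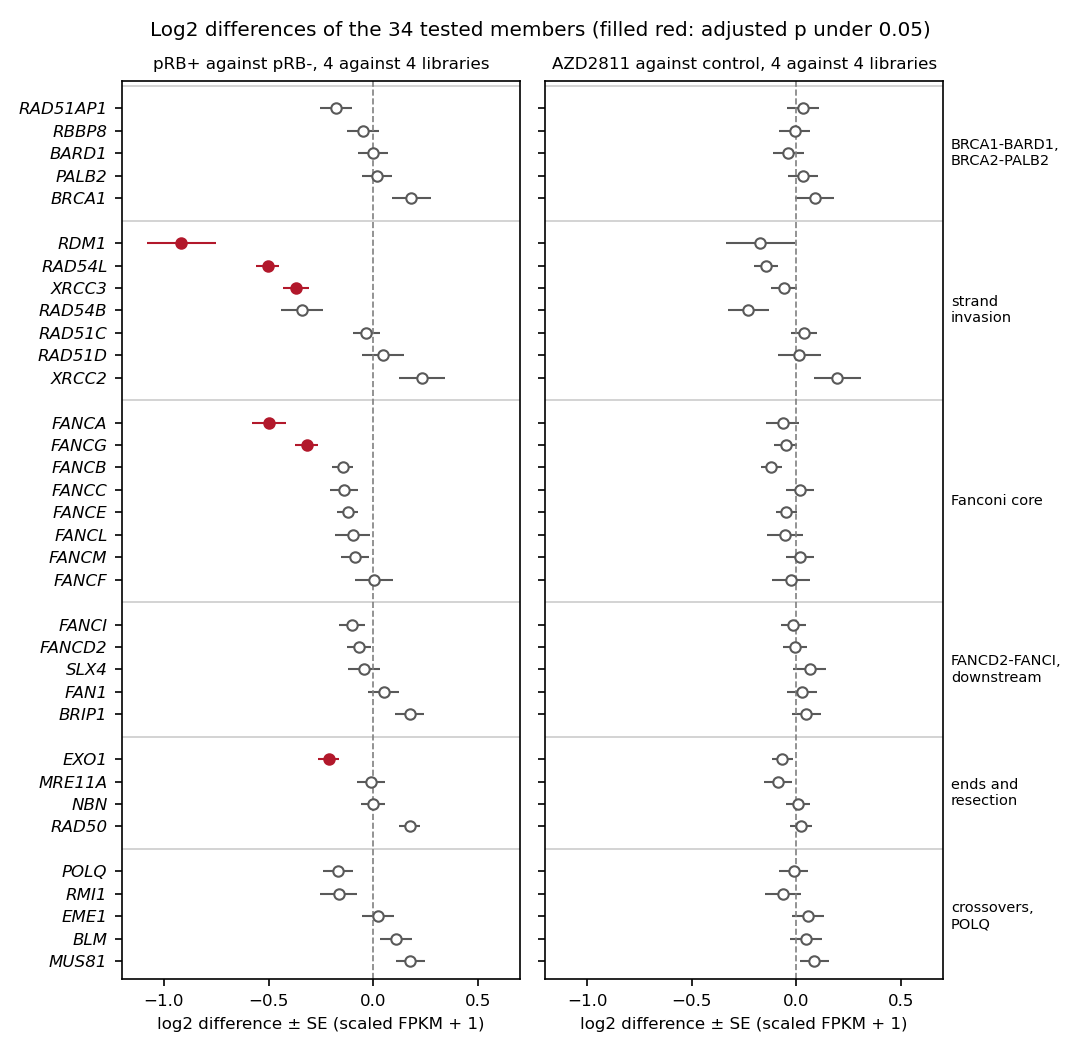
Log2 difference ± SE (log2 of scaled FPKM + 1) of the 34 tested members, grouped by role, for pRB+ against pRB- and for AZD2811 against control, 4 libraries against 4 each. The filled points on the left are the 6 members past the threshold, from RDM1 at -0.92 to EXO1 at -0.21; on the right 0 members passed it (limma).

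Among the strand invasion factors (RAD51C, RAD51D, XRCC2, XRCC3, RAD54L, RAD54B and RDM1) 3 of 7 fell, with a median log2 difference of -0.34. Over all genes tested 5.81% fell, with a median of -0.01. RAD54L measured 21.5 and 23.5 scaled FPKM under AZD2811 and 23.7 and 23.3 in control pRB+ cells, against 30.5 and 30.4 under AZD2811 and 37.3 and 34.4 in control pRB- cells. Every pRB+ library lay below every pRB- library, at 23.0 ± 1.04 against 33.1 ± 3.34 (SD, n = 4 each). RAD54L thus fell by 30.6% (log2 difference -0.50 ± 0.06, SE; limma, adjusted p = 0.0238).

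RDM1 encodes an RNA and DNA binding protein whose RNA recognition motif resembles part of RAD52. In pRB+ cells it measured 4.09 and 5.15 scaled FPKM under AZD2811 and 3.50 and 6.53 in control cells, against 9.62 and 7.97 under AZD2811 and 10.3 and 11.6 in control pRB- cells. The arms did not overlap, although the control pRB+ libraries differed more from each other than those of any other group. RDM1 had the widest difference of the 34, a fall to 4.82 ± 1.33 in pRB+ against 9.85 ± 1.49 in pRB- libraries (SD, n = 4 each), which is -0.92 ± 0.17 on the log2 scale (SE; limma, adjusted p = 0.0266).

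XRCC3 encodes the protein partner of RAD51C. It measured 10.9 and 12 scaled FPKM under AZD2811 and 12.9 and 11.2 in control pRB+ cells, against 15.4 and 14.9 under AZD2811 and 16.6 and 15.0 in control pRB- cells. Again no library of one arm reached the other, and XRCC3 fell by 24% (log2 difference -0.37 ± 0.06, SE, n = 4 per arm; limma, adjusted p = 0.0262).

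The remaining members of that role did not pass. RAD54B, a second RAD54-type motor, stood at 6.36 ± 0.403 scaled FPKM in pRB+ and 8.41 ± 1.62 in pRB- libraries (SD, n = 4 each; log2 difference -0.34 ± 0.10, SE; limma, adjusted p = 0.0659). It was 8.37 and 6.17 under AZD2811 and 9.20 and 9.91 in control pRB- cells, and the 6.17 lay within the pRB+ range of 5.95 to 6.91. RAD51C had a difference of -0.03 (95% interval -0.18 to 0.12), whereas XRCC3 fell. RAD51D (0.05) and XRCC2 (0.23, 95% interval -0.03 to 0.49), which act together in another paralog complex, had positive values that did not pass.

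**Figure D3:**
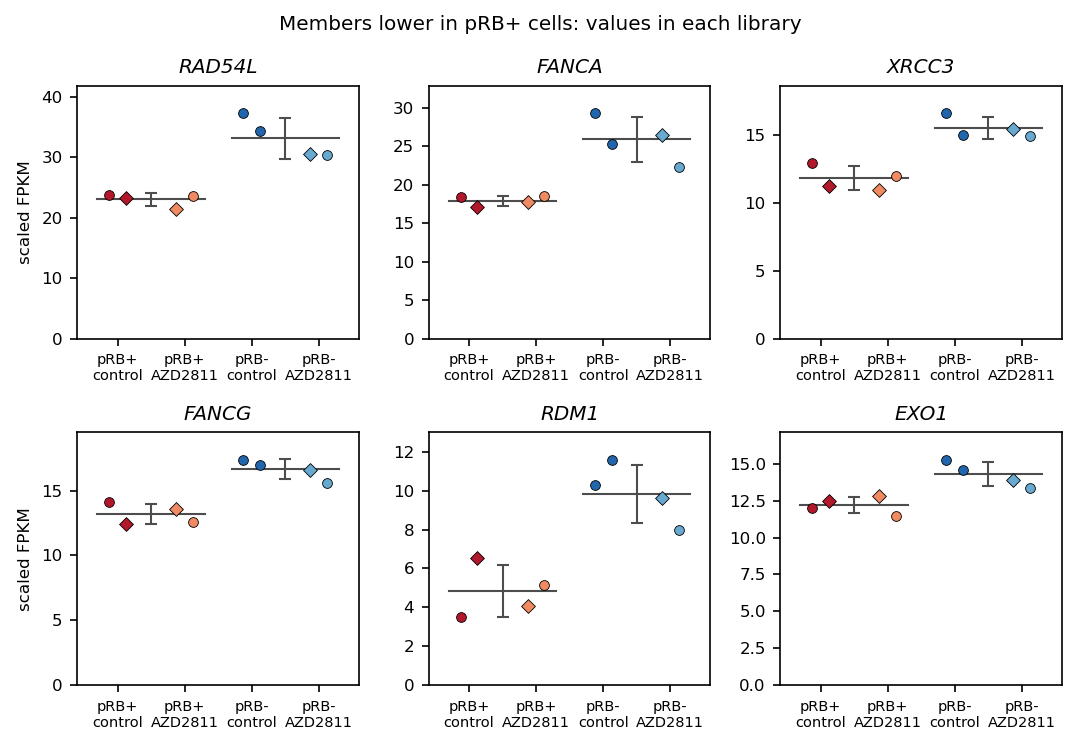
Scaled FPKM of the 6 members that fell, in each library (diamonds: libraries high in RMRP), with the mean ± SD of each arm of 4. In every panel the highest pRB+ library lies below the lowest pRB- library; the gap is narrowest for EXO1, at 12.8 against 13.4.

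In the Fanconi core complex 2 of 8 members fell, and 7 of 8 had a negative difference (median -0.13). Among all 12013 genes tested 5.81% fell and 6241 had a negative difference (median -0.01). FANCA measured 17.7 and 18.5 scaled FPKM under AZD2811 and 18.4 and 17.1 in control pRB+ cells, against 26.5 and 22.3 under AZD2811 and 29.3 and 25.3 in control pRB- cells. The pRB+ libraries were close together, at 17.9 ± 0.655, and the pRB- libraries spread more widely, at 25.9 ± 2.90 (SD, n = 4 each). FANCA fell by 0.50 ± 0.08 on the log2 scale (SE; limma, adjusted p = 0.0252).

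FANCG binds FANCA directly within the core complex. It measured 13.6 and 12.6 scaled FPKM under AZD2811 and 14.1 and 12.4 in control pRB+ cells, against 16.6 and 15.6 under AZD2811 and 17.4 and 17 in control pRB- cells. FANCG fell by 21.0%, with a log2 difference of -0.32 ± 0.06 (SE, n = 4 per arm; limma, adjusted p = 0.0266). FANCL, the ubiquitin ligase of the complex, was abundant (23.3 over 8 libraries) and differed by -0.10 (95% interval -0.30 to 0.10). FANCB, which holds FANCL in place, stood at 5.79 ± 0.277 in pRB+ and 6.52 ± 0.548 in pRB- libraries (SD, n = 4 each; log2 difference -0.15, adjusted p = 0.0941, limma). FANCC, FANCE, FANCF and FANCM ranged from -0.14 to 0.00 and did not pass.

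Downstream of the core complex 0 of 5 members passed (limma), and 1 had an unadjusted p under 0.05, beside 32.5% of all genes. FANCD2 and FANCI, the pair that receives ubiquitin, differed by -0.07 (95% interval -0.20 to 0.07) and -0.10 (-0.25 to 0.04). BRIP1, the helicase that binds BRCA1, was the member with that p: it measured 3.83 and 3.33 scaled FPKM under AZD2811 and 3.93 and 3.32 in control pRB+ cells, against 3.25 and 3.21 under AZD2811 and 2.82 and 3.02 in control pRB- cells. The arms of BRIP1 did not overlap, pRB+ being above pRB-, but the difference of 0.17 ± 0.07 did not pass (SE; limma, adjusted p = 0.128). The scaffold SLX4 and the nuclease FAN1 stood at -0.05 and 0.05.

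Of the genes for broken ends and their trimming 1 of 4 fell, beside 5.81% of all genes. EXO1, the exonuclease of long-range resection, measured 12.8 and 11.5 scaled FPKM under AZD2811 and 12 and 12.5 in control pRB+ cells, against 13.9 and 13.4 under AZD2811 and 15.3 and 14.6 in control pRB- cells. The arms of EXO1 stood close but apart, and it fell by 14.7% (log2 difference -0.21 ± 0.05, SE, n = 4 per arm; limma, adjusted p = 0.0412). Its adjusted p ranged from 0.0564 to 0.128 when any 1 of the 8 libraries was left out, and was 0.0574 without the filter on low genes.

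RAD50, MRE11A (now MRE11) and NBN form the complex that senses broken ends. RAD50 measured 5.36 and 4.99 under AZD2811 and 5.14 and 5.21 in control pRB+ cells, against 4.65 and 4.47 under AZD2811 and 4.13 and 4.67 in control pRB- cells. Its arms did not overlap and the value was higher in pRB+ cells, without passing (log2 difference 0.17 ± 0.05, SE, n = 4 per arm; limma, adjusted p = 0.0686). MRE11A and NBN were near 0, at -0.01 (95% interval -0.17 to 0.15) and 0.00 (-0.13 to 0.13).

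Of the BRCA1 and BRCA2 group 0 of 5 tested members passed and 0 had an unadjusted p under 0.05 (limma; median 0.00). Such a p was seen for 32.5% of all genes. BRCA1 measured 7.90 and 6.52 scaled FPKM under AZD2811 and 7.22 and 6.39 in control pRB+ cells, against 5.91 and 6.70 under AZD2811 and 5.06 and 6.58 in control pRB- cells. These arms overlapped, and the difference of 0.18 had a 95% interval of -0.04 to 0.40 (limma, adjusted p = 0.217). BARD1, the partner of BRCA1, and PALB2, which ties BRCA1 to BRCA2, stood at 0.00 (-0.17 to 0.17) and 0.02 (-0.15 to 0.18). RBBP8 (CtIP, which starts resection) stood at -0.05 and RAD51AP1, a strand invasion cofactor, at -0.18 (-0.36 to 0.00).

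The helicase, nuclease and end joining members that act last or on another route also gave 0 of 5 past the threshold (limma). An unadjusted p under 0.05 was seen for 2 of them, beside 32.5% of all genes (limma). BLM, the helicase that dissolves joined molecules, stood at 10.9 ± 0.892 in pRB+ and 10.0 ± 0.816 in pRB- libraries (SD, n = 4 each; log2 difference 0.11, 95% interval -0.07 to 0.29). POLQ, the polymerase of microhomology-mediated end joining, stood at 4.11 ± 0.294 in pRB+ and 4.75 ± 0.399 in pRB- libraries (SD, n = 4 each; log2 difference -0.17, limma, adjusted p = 0.147). RMI1, which works with BLM, was at -0.17, and the crossover nuclease MUS81 and its partner EME1 at 0.18 (adjusted p = 0.129, limma) and 0.02.

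The 6 members that fell lie on chromosomes 1 (RAD54L and EXO1), 9 (FANCG), 14 (XRCC3), 16 (FANCA) and 17 (RDM1). RefSeq promoter windows (GRCh38.p14, from 250 bases before a gene's start to 50 after it) were found for 31 of the 35 members, with 40 windows in all; the members without one are RAD54B, RDM1, FANCI and NBN. They were searched on both strands for 4 E2F-type words (TTTCCCGC, TTTCGCGC, TTTGCCGC and TTTGGCGC), for the CHR word TTTGAA and for CCAAT, the words named for factors of cell cycle genes; no searched word contains another. E2F-type words occurred in 6 of 31 members (15.0% of their windows, beside 3.31% of all 35116 windows), the CHR word in 3 (7.5%, beside 15.2%) and CCAAT in 13 (35.0%, beside 34.6%). A match is a run of letters and does not show that a factor binds there.

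Of the 5 members that fell and have a window, 2 held an E2F-type word (FANCA and EXO1), 3 held CCAAT (XRCC3, RAD54L and FANCA) and 0 held the CHR word; FANCG held none of them. XRCC2, FANCC, FANCD2 and RMI1 held an E2F-type word and were not past the threshold. The stretches below are those of members that fell and hold a word, since their levels differ most clearly between the arms. Capitals mark the matched words on either strand (ATTGG is CCAAT read on the other strand, and GCGGCAAA is TTTGCCGC), and each runs 5′ to 3′ on the strand of its gene. XRCC3 is shown for its 5 CCAAT words, the most in any member window and so a picked extreme. Over all windows 0.36% hold 5 or more.
XRCC3, chr14:103715452-103715701, minus strand: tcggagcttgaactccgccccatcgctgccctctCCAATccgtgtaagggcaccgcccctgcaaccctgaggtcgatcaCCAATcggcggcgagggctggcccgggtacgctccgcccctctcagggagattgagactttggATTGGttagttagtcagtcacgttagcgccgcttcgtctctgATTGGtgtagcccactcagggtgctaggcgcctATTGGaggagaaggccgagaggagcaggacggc
FANCA, chr16:89816648-89816897, minus strand: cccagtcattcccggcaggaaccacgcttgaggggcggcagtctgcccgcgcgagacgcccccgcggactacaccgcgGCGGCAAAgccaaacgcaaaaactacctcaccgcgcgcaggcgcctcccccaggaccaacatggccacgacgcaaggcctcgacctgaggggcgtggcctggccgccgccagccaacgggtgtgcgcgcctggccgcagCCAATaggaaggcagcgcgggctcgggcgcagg
RAD54L (its second annotated start), chr1:46247513-46247762, plus strand: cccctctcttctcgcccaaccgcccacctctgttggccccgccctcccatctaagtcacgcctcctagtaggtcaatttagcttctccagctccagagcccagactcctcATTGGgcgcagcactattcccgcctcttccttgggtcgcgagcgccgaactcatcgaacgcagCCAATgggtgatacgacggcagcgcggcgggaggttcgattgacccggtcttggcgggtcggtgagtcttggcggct
EXO1 (20 bases on either side of its first annotated start), chr1:241848184-241848223, plus strand: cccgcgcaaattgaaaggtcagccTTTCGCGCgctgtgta

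**Figure D4:**
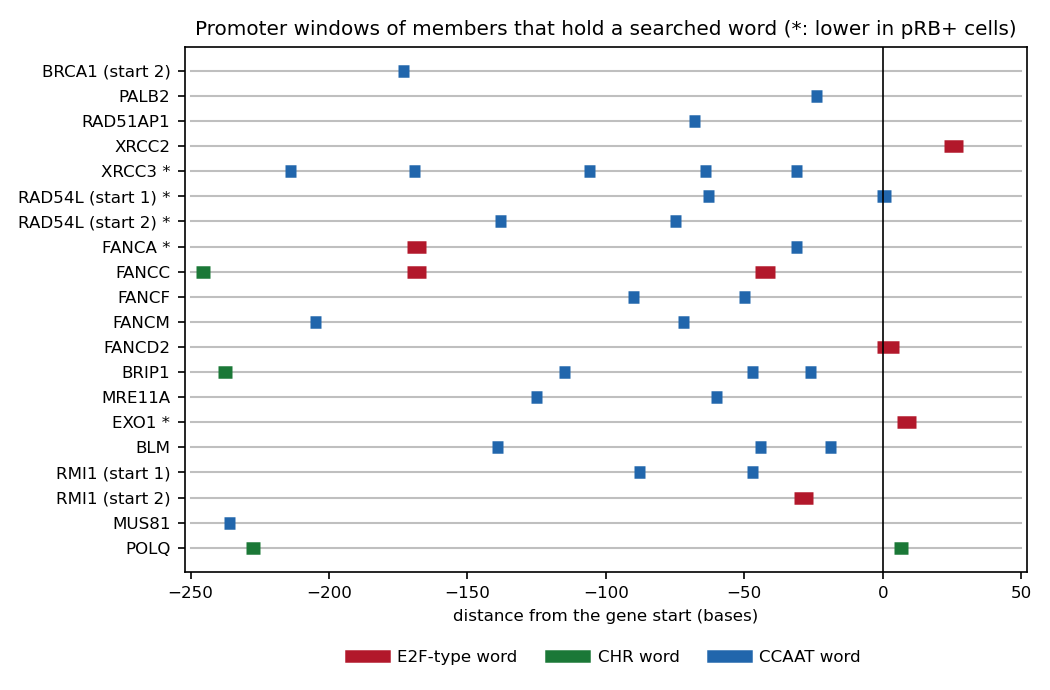
Positions of the searched words in the promoter windows of members that hold at least 1, as distance from the gene's start in bases; an asterisk marks members that fell in pRB+ cells. The 5 CCAAT words of XRCC3 lie between -216 and -29, and E2F-type words appear in members with and without an asterisk.

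Some members share exon bases with another gene in the GENCODE 29 annotation, which can matter where counting ignores strand; the kit kept strand, per the labels' protocol, and whether counting used it is not given in the sources used here. KLC1 covers 76.7% of the exon bases of XRCC3 on the opposite strand, LRRC41 covers 25.1% of RAD54L and ZNF276 covers 23.6% of FANCA. These neighbours were not lower in pRB+ cells: KLC1 stood at 26.6 ± 1.01 scaled FPKM in pRB+ and 24.7 ± 1.08 in pRB- libraries (SD, n = 4 each; log2 difference 0.10, limma, adjusted p = 0.207), LRRC41 differed by 0.01, and ZNF276 rose by 0.35 (limma, adjusted p = 0.0266). EXO1, FANCG and RDM1 had no exon overlap of 100 bases or more. FSBP covers 59.1% of RAD54B and AC116366.3 covers 79.7% of RAD50, both on the same strand. FSBP has a row of its own among the deposited values, and AC116366.3 has none under that name. How reads from the shared bases were assigned is not given, so the values of RAD54B and RAD50 are uncertain. If counting ignored strand, the same limit holds for further members with a neighbour on the opposite strand. Among them are FAN1 (MTMR10, 24.3%), FANCL (VRK2, 18.7%), EME1 (LRRC59, 16.4%), MUS81 (CFL1, 13.9%) and FANCI (POLG, 5.9%). POLG fell by 0.35 (limma, adjusted p = 0.0296), and MTMR10, VRK2, LRRC59 and CFL1 did not pass.

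The pRB difference was then taken separately under AZD2811 and in control cells, with 2 libraries against 2 and no library in common. Under AZD2811 0 members passed and 5 had an unadjusted p under 0.05 (limma), and in control cells 0 passed and 9 had such a p, where 0.00832% and 0.0666% of all genes were past the threshold. The members with such a p made up 14.7% under AZD2811 and 26.5% in control cells, beside 12.3% and 19.3% of all genes. RAD54L stood at -0.42 ± 0.08 under AZD2811 and -0.59 ± 0.08 in control cells (SE), and FANCA at -0.41 ± 0.11 and -0.59 ± 0.11. XRCC3 stood at -0.37 ± 0.10 under AZD2811 and -0.37 ± 0.10 in control cells, FANCG at -0.28 ± 0.08 and -0.36 ± 0.08, RDM1 at -0.80 ± 0.24 and -1.03 ± 0.24, and EXO1 at -0.16 ± 0.08 and -0.27 ± 0.08. The 6 were picked from these same libraries and their arms do not overlap, so a negative sign in either setting was given beforehand. Over all members, 27 of 34 had the same sign in both (18 lower and 9 higher in pRB+ cells). That share, 79.4%, sits beside 79.7% of all genes.

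**Figure D5:**
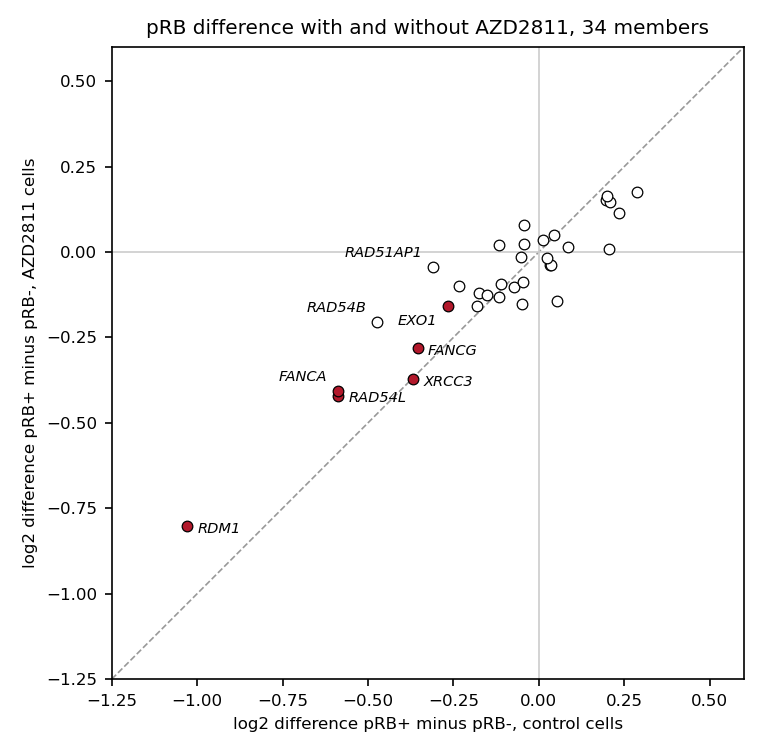
Log2 difference of pRB+ minus pRB- cells under AZD2811 (vertical) against the same difference in control cells (horizontal) for 34 members; the dashed line marks equal values and red points are the 6 members past the threshold over all 8 libraries. RDM1 lies farthest out, at -0.80 and -1.03, and XRCC3 lies on the line.

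The test of whether the pRB difference depended on AZD2811 called 0 members, and 0 had an unadjusted p under 0.05 (limma interaction term). Over all genes 0.0166% passed and 0.641% had such a p. The interaction was 0.17 for RAD54L (95% interval -0.09 to 0.43), 0.18 for FANCA (-0.20 to 0.56), -0.01 for XRCC3 (-0.33 to 0.32) and 0.23 for RDM1 (-0.61 to 1.06). For FANCG it was 0.07 (-0.21 to 0.36) and for EXO1 0.11 (-0.15 to 0.36). A p that misses the threshold does not show that the pRB difference was alike with and without the drug.

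AZD2811 was then set against control over both pRB states, where a missed threshold does not show the absence of an effect. In 4 AZD2811 against 4 control libraries 0 members passed and 2 had an unadjusted p under 0.05 (limma; 0% of all genes passed), which is 5.88% of members beside 3.55% of all genes at that p, and the median log2 difference was -0.01 over members and -0.01 over all genes. RAD54L stood at -0.14 (95% interval -0.28 to -0.01) and FANCB at -0.12 (-0.24 to 0.00), both with an adjusted p of 0.965 (limma). RAD54B stood at -0.23 (-0.46 to 0.00) and BRCA1 at 0.09 (-0.13 to 0.31). FANCD2 and FANCI differed by 0.00 (-0.14 to 0.13) and -0.02 (-0.16 to 0.13).

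Within pRB+ cells AZD2811 called 0 members, with 0 at an unadjusted p under 0.05 (limma), beside 0.00832% and 0.683% of all genes. Within pRB- cells it called 0, with 2 at such a p (limma), where 0.0333% of all genes passed. Those 2 are 5.88% of members, beside 2.7% of all genes at such a p, and were RAD54L at -0.23 ± 0.08 and RAD54B at -0.36 ± 0.13 in pRB- cells (SE, n = 2 per group; adjusted p = 0.992). In pRB+ cells the same members stood at -0.06 ± 0.08 and -0.10 ± 0.13. The comparison within pRB- cells sets 1 library high in RMRP and 1 low against 2 that are low, and its part in these values was not tested.

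The split by RMRP did not fall evenly on pRB, with 2 such libraries of 4 in pRB+ and 1 of 4 in pRB- cells. Within the 3 libraries high in RMRP the log2 difference of pRB+ minus pRB- was -0.43 for RAD54L, -0.58 for FANCA, -0.44 for XRCC3, -0.33 for FANCG, -0.78 for RDM1 and -0.13 for EXO1. Within the other 5 it was -0.50 for RAD54L, -0.44 for FANCA, -0.29 for XRCC3, -0.30 for FANCG, -1.04 for RDM1 and -0.27 for EXO1. The 6 were picked from these same libraries, so the sizes are not free of that choice, and the 3 libraries high in RMRP include 1 from pRB- cells. Since the arms of these 6 do not overlap, the sign within each kind of library was fixed by that. The sign was fixed likewise for RAD50 (0.15 in the 3 libraries and 0.16 in the other 5) and BRIP1 (0.11 and 0.20).

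Other genes of the same pathways were taken from a list of 52, of which 51 were tested: 9 fell and 3 rose in pRB+ cells, with a median log2 difference of -0.07, beside the 5.81% lower and 5.34% higher among all genes. PSMC3IP, a strand exchange cofactor best known from meiosis, stood at 19 ± 1.10 scaled FPKM in pRB+ and 27.9 ± 2.38 in pRB- libraries (SD, n = 4 each) and fell by 0.53 ± 0.07 on the log2 scale (SE; limma, adjusted p = 0.0238). The checkpoint kinase gene CHEK1 fell by 0.43 ± 0.06, the histone gene H2AFX by 0.52 ± 0.10 and RPA2, of the complex that coats single strands, by 0.29 ± 0.06. UIMC1 (RAP80), which brings the BRCA1-A complex to breaks, fell by 0.33 ± 0.05, whereas BRCC3, the deubiquitinase of that complex, rose by 0.51 ± 0.10. UBE2T, the ubiquitin-conjugating enzyme that works with FANCL, was picked out after its values were seen and fell by 0.37 ± 0.08.

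Other repair routes were counted by the same rule, by which 5.81% of all genes fell and 5.34% rose. In non-homologous end joining 2 of 9 tested genes fell and 1 rose (median -0.09), in mismatch repair 0 of 6 fell and 1 rose (median 0.07), and in nucleotide excision repair 1 of 14 fell and 2 rose (median 0.05). The gene that fell in the last list was DDB2, a damage sensor and p53 target, at 2.38 ± 0.365 scaled FPKM in pRB+ and 4.37 ± 0.190 in pRB- libraries (SD, n = 4 each; limma, adjusted p = 0.0238). An unadjusted p under 0.05 (limma) was seen for 4 of the 9 end joining genes (44.4%), 4 of the 6 mismatch repair genes (66.7%) and 5 of the 14 excision repair genes (35.7%), beside 32.5% of all genes. No test compared these lists with each other.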

How the data were processed

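Total RNA from NCI-H82 cells was sequenced in 8 libraries. The authors deposited a table of FPKM; the submitters' processing notes list the tools STAR (2.5.1b) and Cufflinks (2.2.1) and the build hg19, without roles. The gene annotation is not given in the sources used here. After 28 rows with date-like names were left out, FPKM were divided by trimmed-mean factors (trimming 30% of ratios and 5% of levels per end). Genes averaging 1 scaled FPKM or more entered limma 3.58.1 in R 4.3.3 on log2(value + 1), which understates the change of low genes, with an intensity trend and Benjamini-Hochberg adjustment over 12013 genes. Comparisons of 4 against 4 libraries used additive doxycycline and AZD2811 terms, and the others 4 group means. Replicates are called biological, without saying how they were cultured; p-values measure the spread between these libraries. The members, lists, fits and alternatives were chosen with earlier results of these data known. Members described in full were those past the threshold, the next 4 by p, the highest and lowest 3, and BRCA1, BRCA2, PALB2, FANCA, FANCD2, FANCI, BLM and POLQ; other pathway genes were the 6 with the smallest p past the threshold. A further pathway gene is not reported here. Depth was estimated from steps of 1 fragment in low values of 1524 genes with 1 transcript of at least 1500 nucleotides, less 200; counting errors cover counting only. Alternatives were median-ratio scaling, FPKM as deposited, a pseudocount of 0.1, no filter, a replicate block, a library type term, low-RMRP libraries only, averaged group means, only the groups compared, leaving out small RNA and histone genes, and each library left out. Figures used Python 3.11.15 and matplotlib 3.10.9.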

Additional observations from a re-analysis of the deposited data

Results flagged for a closer look

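In 70 groups of 4 libraries (each of the 35 members in pRB+ and in pRB- cells), 2 held a lowest or highest library far from the other 3; chance alone gives about 1 in 20 groups. FANCF, of the Fanconi core complex, measured 2.59 scaled FPKM in pRB+ AZD2811 replicate 1, with the other pRB+ libraries between 2.80 and 2.84. SLX4, the nuclease scaffold, measured 1.76 in pRB+ AZD2811 replicate 2, with the others between 1.90 and 1.92. The gap was 0.851 and 0.867 of the whole range, above Dixon's 95% limit for 4 values. Both are low members, and neither passed in any comparison.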

How the results depend on the processing

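The count of 6 members lower in pRB+ cells was 6 with median-ratio scaling, a pseudocount of 0.1 or a library type term, 5 with no filter (without EXO1) and 7 without small RNA and histone genes (with RAD54B). It was 0 using FPKM as deposited, 0 over the 5 libraries low in RMRP and 0 with averaged group means, and 0 to 6 when 1 library was left out: 0 once replicate 1 of any of the 4 groups or replicate 2 of pRB- control was left out, and 5 or 6 without one of the others. The cause was not tested. The numbers of all genes past the threshold fell likewise, to 143, 2 and 4 under the first 3 of these settings. They fell to 1 or 2 in the fits without 1 library that gave 0 members. The log2 differences moved less: over 17 alternatives RAD54L ranged from -0.55 to -0.47, FANCA from -0.56 to -0.42, XRCC3 from -0.41 to -0.28, FANCG from -0.35 to -0.28, RDM1 from -1.07 to -0.74 and EXO1 from -0.26 to -0.19; EXO1 passed in 5 of the 17 and the other 5 in 9 each. PALB2, near 0, turned to -0.023 using FPKM as deposited and to -0.067 over the 5 libraries, and ranged from -0.043 (without pRB- AZD2811 replicate 1) to 0.055 when 1 library was left out, with -0.009 without replicate 1 of pRB+ AZD2811. With FPKM as deposited the members' median was -0.39 for pRB in control cells, 0.21 for pRB under AZD2811, -0.34 for AZD2811 in all libraries, -0.64 in pRB- cells and 0.60 for the interaction, next to medians over all genes of -0.33, 0.26, -0.34, -0.64 and 0.60. A replicate block also gave 6 members. Whether same-numbered libraries belong together is not stated in the sources used here. Their deviations correlated from -0.456 to 0.474 between groups. These values cannot decide it, since the libraries high in RMRP are replicate 1 in some groups and replicate 2 in another. Fragment counts limit the low members: FANCF had about 79 fragments in the library where it had fewest.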
